A study of Mus musculus with 6 samples.

Results

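The 10 genes described here move iron into, within and out of brain cells and set how readily iron drives the oxidation of membrane lipids. They were taken by symbol from the 24419 genes of the deposited expression table, where all 10 are present. Trf, Tfrc and Slc11a2 serve iron uptake, Fth1, Ftl1 and Ncoa4 serve iron storage and its release, Slc40a1 serves export, and Gpx4, Aifm2 and Acsl4 act on lipid peroxidation. The rule that picks them uses no measured level.

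The mice were male C57BL/6N wild type, and the middle cerebral artery had been occluded for 60 min in both groups. One group then received 15-HETrE, a hydroxylated derivative of dihomo-gamma-linolenic acid, with 600 ng in all given into a vein in 150 µL of PBS at 24, 48 and 72 h after the stroke began, and the other received the vehicle on the same schedule. On day 4, tissue next to the infarct was treated with pronase for 75 min, and cells that stained for Thy1 and not for ACSA2, CD31, CD45 or O4 were sorted as a neuron-enriched fraction. Each group has 3 RNA-seq libraries, and nothing in the sources says that they came from separate animals, so every p-value measures the spread between libraries, which may be technical.

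Iron bound to transferrin enters a cell through the transferrin receptor, leaves the endosome through a divalent metal transporter, and is stored in ferritin or exported by ferroportin. When iron is short, iron regulatory proteins bind hairpins in messenger RNAs called iron-responsive elements; they protect the receptor's message and block translation of ferritin and ferroportin. Ferroptosis is a form of cell death in which iron-dependent peroxidation of polyunsaturated phospholipids outruns its repair. In the adult brain, transferrin messenger RNA comes mainly from oligodendrocytes and the choroid plexus.

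The hairpins are shown because several of these genes share them and their place in the message differs by role. A script searched the sense strand of GENCODE M21 transcripts (GRCm38, the assembly that mm10 names) for a C, 5 stem bases, the loop CAGTGN and 5 further stem bases that pair with the first 5, with G-T pairs allowed. Of 21901 coding genes, 294 (1.34%) hold a match in a coding transcript, and 4 of the 10 genes do. Tfrc holds 4 matches in its 3′ UTR (plus strand), and it is the only coding gene with 3 or more in a transcript. Fth1 (plus strand), Ftl1 and Slc40a1 (both minus strand) each hold 1 match in the 5′ UTR. Slc11a2 (minus strand) has no match under this rule; its 3′ UTR holds 1 in which 4 of the 5 stem positions pair. The match is carried by 1 of 3 coding transcripts of Tfrc, 4 of 5 of Fth1, 1 of 2 of Ftl1, 1 of 4 of Slc40a1 and 1 of 6 of Slc11a2. In the lines below, 30 bases are printed 5′ to 3′ and the capitals mark the loop.
Tfrc IRE 1, chr16:32631219-32631248: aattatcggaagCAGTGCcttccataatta
Tfrc IRE 2, chr16:32631598-32631627: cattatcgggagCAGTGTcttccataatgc
Tfrc IRE 3, chr16:32631663-32631692: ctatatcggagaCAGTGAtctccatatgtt
Tfrc IRE 4, chr16:32631710-32631739: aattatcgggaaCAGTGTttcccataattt
Fth1 IRE 1, chr19:9982732-9982761: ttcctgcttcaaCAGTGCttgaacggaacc
Ftl1 IRE 1, chr7:45459778-45459807: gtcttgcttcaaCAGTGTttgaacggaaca
Slc40a1 IRE 1, chr1:45925464-45925493: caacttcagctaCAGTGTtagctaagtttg
Slc11a2, 4 stem pairs, chr15:100395152-100395181: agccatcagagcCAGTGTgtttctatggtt
A match describes letters in a transcript and is not a measured binding site. The deposited values are sums over a gene's isoforms, so transcripts with and without a hairpin are not separated.

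The libraries held 5405245 to 22558400 reads assigned to genes, and the pair whose names say combined, 1 in each group, had the fewest (7993084 in 15-HETrE combined and 5405245 in vehicle combined). The other libraries are called 15-HETrE 1, 15-HETrE unnumbered, vehicle 1 and vehicle 2 after their names. Levels are scaled CPM, reads relative to the library total after the authors' size factors, and differences are 15-HETrE minus vehicle in log2(CPM + 1), which understates the change of low genes. All 15 pan-neuronal markers had reads in every library, summing to 3833 to 6971 CPM in 15-HETrE and 2374 to 3940 CPM in vehicle libraries. The 15 oligodendrocyte markers, also above 0 in every library, summed to 18605 to 36056 CPM in 15-HETrE and 17368 to 26448 CPM in vehicle libraries, although the sort had left out O4-positive cells. Oligodendrocyte transcripts were thus abundant in libraries labelled as neurons. The 12 astrocyte markers were above 0 throughout and summed to 1643 to 22111 CPM in 15-HETrE and 918 to 8615 CPM in vehicle libraries, with the combined library highest in each group. Of the 12 fibroblast markers, Postn was at 0 in part of the libraries, and their sum was 1249 to 2265 CPM in 15-HETrE and 1519 to 13006 CPM in vehicle libraries. The 10 pericyte and smooth muscle markers were above 0 throughout, and their sum did not overlap between groups, at 539 to 982 CPM in 15-HETrE and 1263 to 1629 CPM in vehicle libraries. Among lists at low levels, 14 microglia and macrophage markers averaged 1.78 to 2.86 in 15-HETrE and 1.37 to 3.06 in vehicle libraries on the log2(CPM + 1) scale, and 12 endothelial markers averaged 2.55 to 3.19 in 15-HETrE and 2.91 to 3.35 in vehicle libraries. The 10 oligodendrocyte precursor markers averaged 8.37 to 8.70 in 15-HETrE and 7.95 to 9.04 in vehicle libraries. Pdgfra stands on both the precursor and the fibroblast list, and Cspg4 on both the precursor and the pericyte list. Precursor transcripts can thus enter those sums. In 15-HETrE combined the fibroblast genes averaged 3.25 on the log2 scale but summed to 1303 CPM, so the sum was uneven over the genes. The 9 erythroid genes in the table averaged 0.24 to 0.53 in 15-HETrE and 0.19 to 0.36 in vehicle libraries, with 6 of them at 0 in all libraries. The part that these other cells play in the values below was not tested except where stated.

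The ferritin light chain gene Ftl1 averaged 104 ± 23.6 CPM in 15-HETrE and 183 ± 54.8 CPM in vehicle libraries, and the iron transporter gene Slc11a2 averaged 33.0 ± 4.47 CPM in 15-HETrE and 49.6 ± 13.4 CPM in vehicle libraries (SD, n = 3 each). For both, every 15-HETrE library lay below every vehicle library. Gpx4, the central enzyme against ferroptosis, averaged 71.6 ± 10.8 CPM in 15-HETrE and 73.0 ± 2.62 CPM in vehicle libraries, while Trf and Aifm2 spread widely among the 15-HETrE libraries. None of the 10 genes passed the test at an adjusted p of 0.05 (limma, Benjamini-Hochberg over the 14523 genes that averaged 1 CPM or more), and neither did any other gene (0%). At an unadjusted p under 0.05, limma took 1 of the 10, Ftl1, which was lower in 15-HETrE; over all genes it took 1380 (9.5%), of which 760 (5.23%) were lower. On the same reads, edgeR called 0 of the 10 with 1 at an unadjusted p under 0.05, against 1232 (8.48%) of all genes, and DESeq2 called 0 of the 10 and 165 (1.14%) of all genes, 35 (0.241%) higher and 130 (0.895%) lower. The groups did not overlap for 2 of the 10, Ftl1 and Slc11a2, both lower in 15-HETrE, and for 1209 of all genes in that direction (8.32%). The estimate was below 0 for 8 of the 10 genes and 7111 of all 14523, with a median of -0.40 over the 10 and 0.02 over all genes. With libraries weighted by their fit, limma called 2425 of the 14523 genes, Ftl1 alone among the 10. The median within-group SD was 0.39 over the 10 and 0.56 over all genes on the log2 scale. As these are bulk samples, fewer cells of a type and less RNA per cell cannot be told apart.

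**Figure D1:**
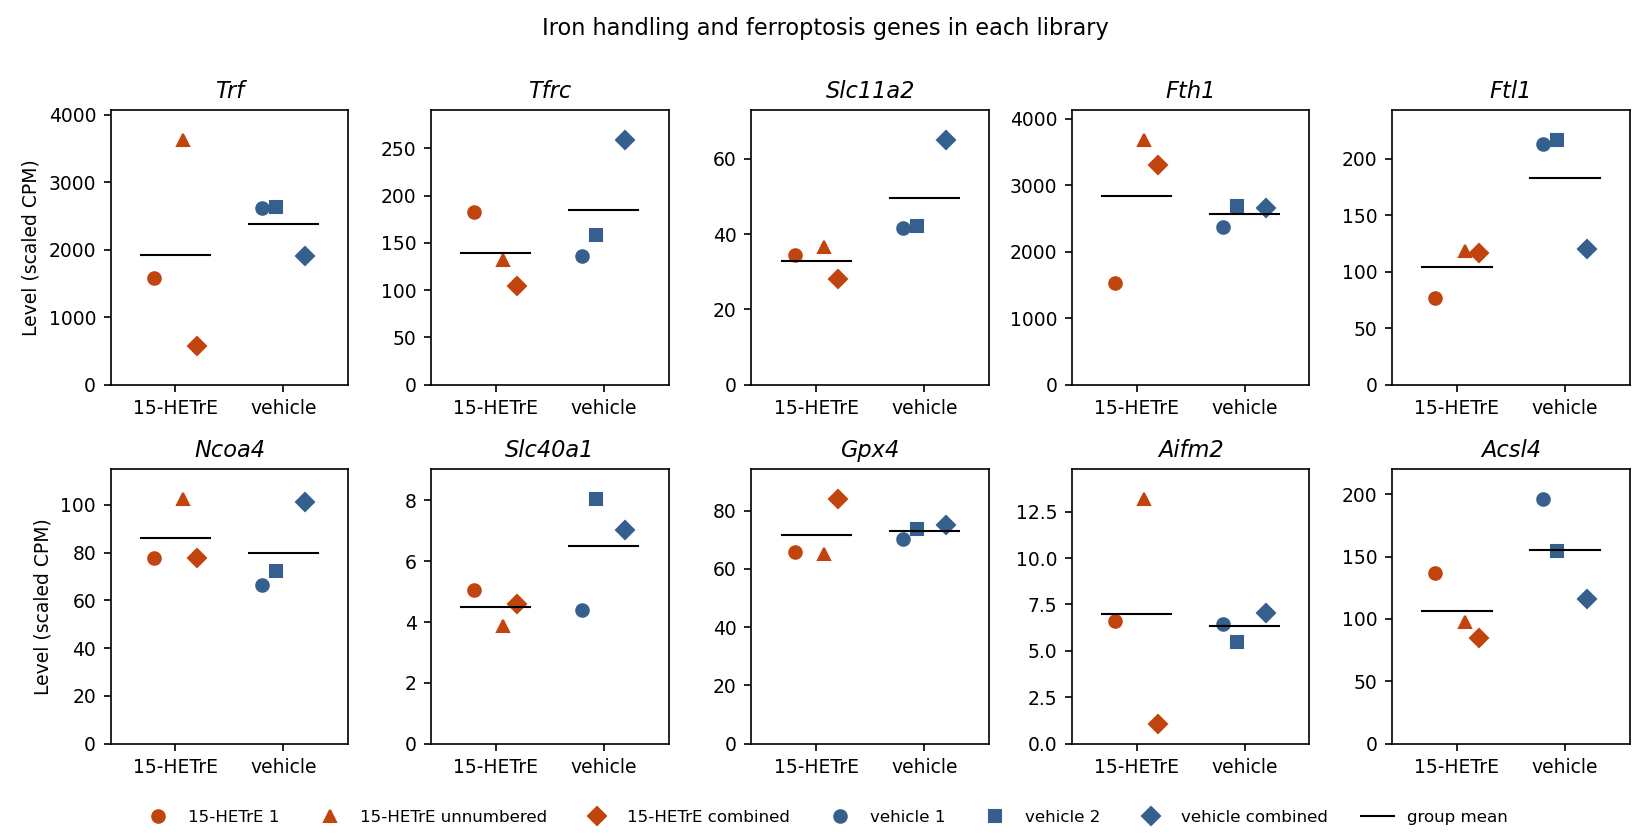
Level of each of the 10 genes in scaled CPM (y axis, from 0, one panel per gene) in the 3 15-HETrE libraries and the 3 vehicle libraries; each point is 1 library and the horizontal line is the group mean. Ftl1 and Slc11a2 are the genes whose 15-HETrE points all lie below the vehicle points, and Trf ranges from 567 to 3629 CPM within 15-HETrE.

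Levels were also divided by exonic length, which joins the exons of all annotated transcripts of a gene, coding or not. This length can exceed that of the transcripts present, to a degree that may differ between genes, so the order below is approximate. Fth1 came first at 818 ± 331 CPM per kb in 15-HETrE and 740 ± 48.8 in vehicle libraries (SD, n = 3 each). Trf followed at 580 ± 470 CPM per kb in 15-HETrE and 718 ± 123 in vehicle libraries. The ranges of these leading genes overlapped over the 6 libraries, 441 to 1062 for Fth1 and 171 to 1093 for Trf. Ftl1 was next, at 77.4 ± 17.6 CPM per kb in 15-HETrE and 136.7 ± 40.9 in vehicle libraries, and its highest library (161.8) stood below the lowest of Trf. Gpx4 (37.8 to 48.8 CPM per kb over all libraries), Tfrc (16.8 to 41.9) and Acsl4 (15.6 to 36.3) came after it, each overlapping its neighbour. Ncoa4 (7.09 to 10.95) and Slc11a2 (4.40 to 10.2) overlapped below them, and Aifm2 (0.262 to 3.20) and Slc40a1 (0.431 to 0.895) closed the order. Neighbours whose ranges did not meet over the 6 libraries were Trf and Ftl1, Ftl1 and Gpx4, Acsl4 and Ncoa4, and Slc11a2 and Aifm2.

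Trf encodes transferrin, the secreted carrier of ferric iron (chr9:103204001-103230444, minus strand). It was present at 1583, 3629 and 567 CPM in the 15-HETrE 1, unnumbered and combined libraries, against 2614, 2628 and 1911 CPM in vehicle 1, 2 and combined. The 15-HETrE libraries included both the highest and the lowest value, a 6.40-fold range, while the vehicle libraries spanned 1.38-fold. The means were 1926 ± 1559 CPM in 15-HETrE and 2384 ± 410 CPM in vehicle libraries (SD, n = 3 each), and the difference of -0.67 (SE 0.58, 95% interval -1.96 to 0.62) had an adjusted p of 0.732 in limma. It was -0.73 among the libraries whose names begin with S0916 (15-HETrE 1 against vehicle 1 and 2) and -1.75 between the combined libraries. Without 15-HETrE combined it was 0.02, without 15-HETrE unnumbered -1.31, and in edgeR -0.31. The annotation places a second coding gene, Gm20425, over Trf on the same strand with 2108 shared exonic bases, and the sources do not say how counting treated it.

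Because oligodendrocytes make Trf, its log2 level was also set against the mean of the 15 oligodendrocyte markers in the same library. Trf stood above that mean by 1.98, 2.16 and 0.43 in 15-HETrE 1, unnumbered and combined, against 2.80, 2.18 and 2.12 in vehicle 1, 2 and combined. 15-HETrE combined lay below all others, and the groups overlapped because 15-HETrE unnumbered exceeded vehicle combined. The means were 1.52 ± 0.95 in 15-HETrE and 2.37 ± 0.38 in vehicle libraries, a difference of -0.84 with p = 0.2 in an exact two-sided permutation test, whose smallest possible p with 3 against 3 is 0.1. The marker mean itself differed by 0.17 over all libraries, by -0.21 within S0916 and by -0.06 between the combined libraries, and it was highest in 15-HETrE unnumbered (9.66), the library with the most Trf. Without 15-HETrE combined the difference was -0.30. The 8 choroid plexus markers were near 0, with sums of 1.35 to 11.4 CPM in 15-HETrE and 0 to 20.7 CPM in vehicle libraries.

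**Figure D2:**
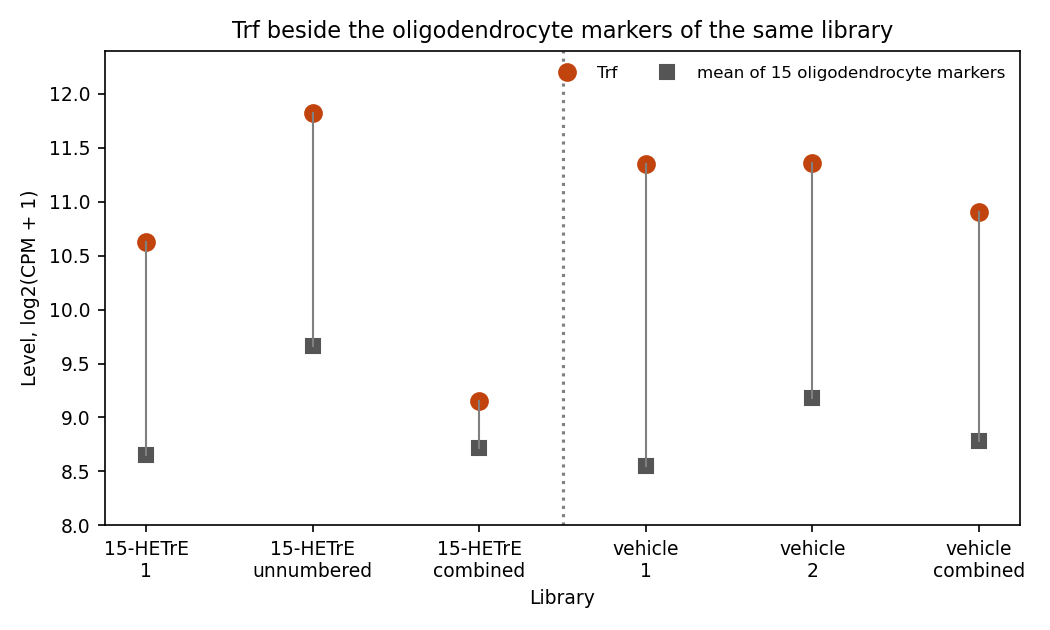
Trf and the mean of the 15 oligodendrocyte markers in each library, both in log2(CPM + 1) (y axis), with 15-HETrE libraries on the left and vehicle libraries on the right. The gap between them is smallest in 15-HETrE combined (0.43) and largest in vehicle 1 (2.80).

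Tfrc, the transferrin receptor (chr16:32608920-32632794, plus strand), is the gene with the 4 hairpins printed above. Its levels were 183, 132 and 104 CPM in the 15-HETrE 1, unnumbered and combined libraries, against 136, 159 and 259 CPM in vehicle 1, 2 and combined. The groups overlapped, and vehicle combined was the highest library. The difference was -0.38 (SE 0.31, 95% interval -1.08 to 0.31, limma adjusted p = 0.720). It ran in opposite directions within library names: 0.31 within S0916 and -1.31 between the combined libraries. Without vehicle combined it was -0.11.

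Slc11a2 encodes DMT1, the transporter that passes ferrous iron out of the endosome (chr15:100387898-100425072, minus strand). It was at 34.4, 36.6 and 28.0 CPM in the 15-HETrE 1, unnumbered and combined libraries, against 41.6, 42.2 and 65.1 CPM in vehicle 1, 2 and combined. Every 15-HETrE library lay below every vehicle library, 36.6 CPM being the highest 15-HETrE value and 41.6 CPM the lowest vehicle value. The difference of -0.55 (SE 0.32, 95% interval -1.26 to 0.16) had a limma p of 0.114 and an adjusted p of 0.618. It was -0.28 within S0916, -1.19 between the combined libraries and -0.34 without vehicle combined. A coding gene on the opposite strand, Gm5475, shares 402 exonic bases with it, and whether counting used strand is not given.

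**Figure D3:**
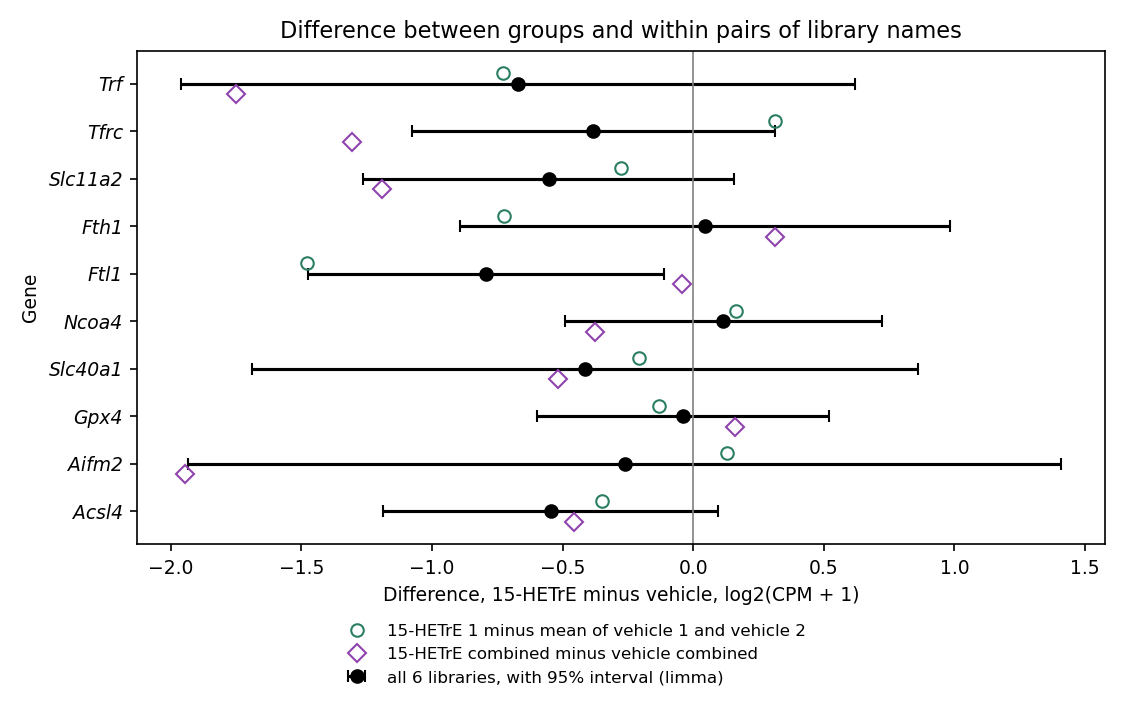
Difference between groups for each of the 10 genes, 15-HETrE minus vehicle in log2(CPM + 1) (x axis), with its 95% interval as a bar, and the same difference within the S0916 names and between the combined libraries as separate points. Only the interval of Ftl1 (-1.47 to -0.11) leaves out 0, and the separate points of Tfrc, Fth1, Ncoa4, Gpx4 and Aifm2 lie on opposite sides of 0.

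Fth1 encodes the ferritin heavy chain, the subunit that oxidises iron for storage (chr19:9980598-9985098, plus strand). It was at 1529, 3683 and 3297 CPM in the 15-HETrE 1, unnumbered and combined libraries, against 2374, 2681 and 2650 CPM in vehicle 1, 2 and combined. The vehicle libraries lay close together and inside the range of the 15-HETrE libraries. The means were 2836 ± 1149 CPM in 15-HETrE and 2568 ± 169 CPM in vehicle libraries. The difference of 0.05 (95% interval -0.89 to 0.98, limma adjusted p = 0.977) became -0.17 after quantile normalization, and it was -0.72 within S0916 and 0.32 between the combined libraries.

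Ftl1 encodes the ferritin light chain, which supports the mineral core without oxidising iron (chr7:45457944-45459884, minus strand). It was at 76.5, 118.1 and 116.5 CPM in the 15-HETrE 1, unnumbered and combined libraries, against 212.7, 216.8 and 119.95 CPM in vehicle 1, 2 and combined. The groups did not overlap, but by a margin of 118.1 against 119.95 CPM. The means were 104 ± 23.6 CPM in 15-HETrE and 183 ± 54.8 CPM in vehicle libraries (SD, n = 3 each), and the difference was -0.79 (SE 0.31, 95% interval -1.47 to -0.11). It had an unadjusted p of 0.0269 and an adjusted p of 0.487 in limma, with adjusted p of 0.535 in edgeR and 0.296 in DESeq2. The difference was -1.48 within S0916 and -0.04 between the combined libraries. Without vehicle combined it was -1.07 with a limma adjusted p of 0.108. With libraries weighted by their fit it was -1.31 with a limma adjusted p of 0.000928. That fit rested mostly on 15-HETrE 1 within its group, with weights of 3.16, 0.508 and 0.441 for 15-HETrE 1, unnumbered and combined. The weights of vehicle 1, 2 and combined were 1.82, 3.75 and 0.206. Vehicle 1 and 2, highest in Ftl1, were also highest in fibroblast markers. The fibroblast list averaged 4.34, 6.45 and 3.25 on the log2 scale in 15-HETrE 1, unnumbered and combined. It averaged 8.71, 8.47 and 3.59 in vehicle 1, 2 and combined. That list differed by -4.25 within S0916 and by -0.34 between the combined libraries, and the pericyte and smooth muscle list by -1.75 within S0916 and by -0.64 between the combined libraries. Their part in the Ftl1 difference was not tested.

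The chains of ferritin can be set side by side as a ratio of CPM per kb. The lengths used were 3469 bases for Fth1 and 1340 bases for Ftl1. The size of the ratio depends on these lengths, but its order over the libraries does not. On that scale, Fth1 stood above Ftl1 by 7.72-, 12.05- and 10.9-fold in 15-HETrE 1, unnumbered and combined, against 4.31-, 4.78- and 8.53-fold in vehicle 1, 2 and combined. The ratio was lowest in vehicle 1 and 2, and the groups overlapped because vehicle combined exceeded 15-HETrE 1. Ftl1 has 7 annotated copies with at least 90% identity over at least 50% of its coding sequence, Fth1 has 1, and none of them is listed in the table; reads shared with these copies leave the level of Ftl1 in particular uncertain.

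**Figure D4:**
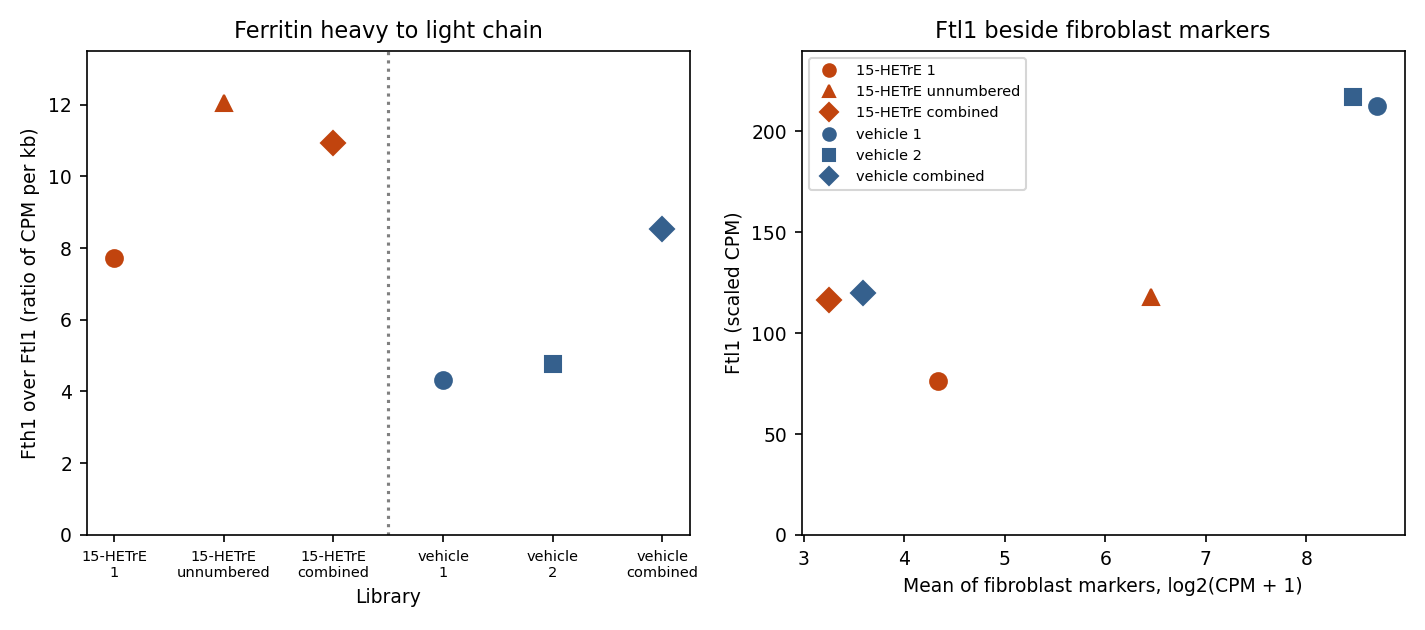
Left, Fth1 over Ftl1 as a ratio of CPM per kb (y axis, from 0) in each library. Right, Ftl1 in scaled CPM (y axis, from 0) against the mean of the fibroblast markers in log2(CPM + 1) (x axis), 1 point per library. Vehicle 1 and 2, at 212.7 and 216.8 CPM, have the highest fibroblast means, 8.71 and 8.47.

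Ncoa4 encodes the receptor that delivers ferritin to lysosomes for degradation (chr14:32159865-32179855, plus strand). It was at 77.7, 102.6 and 77.7 CPM in the 15-HETrE 1, unnumbered and combined libraries, against 66.4, 72.3 and 101.1 CPM in vehicle 1, 2 and combined. The groups overlapped, and 1 library of each stood near 100 CPM. The difference was 0.12 (95% interval -0.49 to 0.72, limma adjusted p = 0.914), 0.16 within S0916 and -0.37 between the combined libraries. A processed pseudogene with 99.9% identity, Gm6768, is not listed in the table.

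Slc40a1 encodes ferroportin, the exporter of iron from cells (chr1:45908068-45926523, minus strand). It was read 111, 65 and 34 times in 15-HETrE 1, unnumbered and combined, against 94, 179 and 39 times in vehicle 1, 2 and combined. The levels were 5.05, 3.88 and 4.60 CPM in the 15-HETrE libraries, against 4.39, 8.05 and 7.01 CPM in the vehicle libraries. Vehicle 1 lay within the 15-HETrE range and the other vehicle libraries above it. The difference was -0.41 (SE 0.57, 95% interval -1.69 to 0.86, limma adjusted p = 0.835), -0.21 within S0916 and -0.52 between the combined libraries.

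Gpx4 encodes the selenoenzyme that reduces phospholipid hydroperoxides (chr10:80047166-80056439, plus strand). It was at 65.7, 65.1 and 84.1 CPM in the 15-HETrE 1, unnumbered and combined libraries, against 70.1, 73.9 and 75.2 CPM in vehicle 1, 2 and combined. Its within-group SD of 0.15 on the log2 scale was the smallest of the 10 genes. The difference was -0.04, with a 95% interval of -0.60 to 0.52 (limma adjusted p = 0.968), -0.13 within S0916 and 0.16 between the combined libraries. The annotation has 2 partial copies of Gpx4, with 99.6% identity over 67.1% and 95.1% identity over 67.2% of the coding sequence, and neither is listed in the table.

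Aifm2 encodes FSP1, an oxidoreductase that keeps coenzyme Q10 reduced in membranes apart from Gpx4 (chr10:61715263-61739260, plus strand). It was read 145, 221 and 8 times in 15-HETrE 1, unnumbered and combined, against 138, 122 and 39 times in vehicle 1, 2 and combined. The levels were 6.60, 13.2 and 1.081 CPM in the 15-HETrE libraries, against 6.45, 5.49 and 7.01 CPM in the vehicle libraries. The vehicle libraries lay together, and the 15-HETrE libraries spread over a 12.2-fold range on both sides of them. The difference was -0.26 (95% interval -1.93 to 1.41, limma adjusted p = 0.933) and became 0.51 without 15-HETrE combined, the library with 8 reads, and 0.15 in edgeR. It was 0.13 within S0916 and -1.94 between the combined libraries. Aifm2 shares 233 exonic bases with H2afy2 on the opposite strand, and their reads could not be told apart if counting ignored strand.

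Acsl4 encodes the ligase that activates arachidonic and adrenic acid for insertion into phospholipids (chrX:142317993-142390535, minus strand). It was at 136.5, 97.3 and 84.3 CPM in the 15-HETrE 1, unnumbered and combined libraries, against 196.4, 154.1 and 116.2 CPM in vehicle 1, 2 and combined. In each group the library numbered 1 was the highest and the combined library the lowest, and 15-HETrE 1 exceeded vehicle combined. The difference was -0.55 (SE 0.29, 95% interval -1.19 to 0.09) with a limma p of 0.0866 and an adjusted p of 0.592. It was -0.35 within S0916 and -0.46 between the combined libraries, the same direction in both.

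The rest of the pathway was taken from 11 lists of 212 genes, of which 211 were in the table and 197 were tested. None passed in limma (0%) or in edgeR, and DESeq2 called 1, Cp. With library weights limma called 32 of the 197, beside 2425 of all 14523 genes. Of the 32, 6 were higher and 26 lower in 15-HETrE. At an unadjusted p under 0.05, limma took 5 that were higher (Prkcb, Slc1a1, Slc38a1, Acsl6 and Agpat3; the last 3 were chosen after their values were seen) and 14 that were lower in 15-HETrE, shares to be set beside 4.27% and 5.23% of all genes. The groups did not overlap for 10 that were higher and 19 that were lower, beside 6.84% and 8.32% of all genes. The estimates were balanced, 99 above and 98 below 0, with a median of 0.01.

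Among genes of iron uptake, 4 estimates were above and 12 below 0 of 16 tested (median -0.17). Slc39a14, a transporter of iron not bound to transferrin, had 31.5 ± 9.59 CPM in 15-HETrE and 84.2 ± 40.5 CPM in vehicle libraries, and Steap3, the endosomal ferrireductase, had 18.8 ± 9.61 CPM in 15-HETrE and 33.1 ± 17.1 CPM in vehicle libraries (limma adjusted p = 0.451 and 0.698). Slc39a14 differed by -2.13 within S0916 and by -0.44 between the combined libraries, and Steap3 by -1.76 and 0.11; both were highest in vehicle 1 and 2, as the fibroblast markers were, whose part was not tested. Lrp1, a receptor that also takes up heme bound to hemopexin, was the most abundant of the list in CPM, at 1228 ± 446 CPM in 15-HETrE and 1299 ± 163 CPM in vehicle libraries. The export list had 4 estimates above and 6 below 0 of 10 tested. Its Cp, the ferroxidase ceruloplasmin that acts with ferroportin, was at 52.7, 71.5 and 78.0 CPM in the 15-HETrE 1, unnumbered and combined libraries, against 260.1, 270.7 and 134.9 CPM in vehicle 1, 2 and combined. Every 15-HETrE library was below every vehicle library. The difference of -1.66 (SE 0.32) had an adjusted p of 0.334 in limma, 0.468 in edgeR and 0.000878 in DESeq2, and it was -2.31 within S0916 and -0.78 between the combined libraries. Without vehicle combined it was -1.98, with a limma adjusted p of 0.0190. Vehicle 1 and 2, highest in Cp, were also highest in the fibroblast markers. On the log2 scale, the fibroblast mean was 4.34, 6.45 and 3.25 in 15-HETrE 1, unnumbered and combined. In vehicle 1, 2 and combined it was 8.71, 8.47 and 3.59. The part of these markers in Cp was not tested. Heph, the related membrane ferroxidase, had 2.57 ± 3.34 CPM in 15-HETrE and 6.79 ± 3.07 CPM in vehicle libraries. It was read 30, 0 and 47 times in 15-HETrE 1, unnumbered and combined, against 221, 115 and 27 times in vehicle 1, 2 and combined. Its groups overlapped, and the difference of -1.52 (limma adjusted p = 0.597) was 0.33 between the combined libraries. App, the amyloid precursor, had 1545 ± 445 CPM in 15-HETrE and 1398 ± 317 CPM in vehicle libraries.

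The genes that read iron levels lay close to 0, with 7 estimates above and 8 below of 15 tested (median 0.00). Aco1, which encodes iron regulatory protein 1, had 54.6 ± 1.52 CPM in 15-HETrE and 55.1 ± 7.74 CPM in vehicle libraries, and Ireb2, which encodes iron regulatory protein 2, had 125.8 ± 12.9 CPM in 15-HETrE and 122.7 ± 31.6 CPM in vehicle libraries. Their intervals were -0.60 to 0.59 for Aco1 and -0.53 to 0.66 for Ireb2. Fbxl5, the ubiquitin ligase subunit that marks iron regulatory protein 2 for degradation, had 113 ± 17.3 CPM in 15-HETrE and 147 ± 13.1 CPM in vehicle libraries without overlap (difference -0.38, limma adjusted p = 0.637). Pcbp2, an iron chaperone, had 141 ± 12.5 CPM in 15-HETrE and 168 ± 32.4 CPM in vehicle libraries, and Epas1, whose message carries an iron-responsive element in humans, had 418 ± 265 CPM in 15-HETrE and 361 ± 173 CPM in vehicle libraries.

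In heme handling, 13 estimates were above and 8 below 0 of 21 tested. Hmox1, the inducible heme oxygenase that frees iron, had 6.42 ± 3.39 CPM in 15-HETrE and 25.9 ± 15.3 CPM in vehicle libraries (difference -1.74, SE 0.63, limma adjusted p = 0.462), and its groups overlapped. It was -2.44 within S0916 and -1.15 between the combined libraries, with vehicle 1 and 2 highest, as in the fibroblast markers, whose part was not tested. Slc48a1, a heme transporter, had 132 ± 32.1 CPM in 15-HETrE and 101 ± 17.3 CPM in vehicle libraries. In mitochondrial iron and iron-sulfur assembly, 6 estimates were above and 11 below 0 of 17 tested, and Hspa9, its chaperone, had 190 ± 41.3 CPM in 15-HETrE and 277 ± 28.2 CPM in vehicle libraries without overlap (difference -0.56, limma adjusted p = 0.523).

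The list of NRF2 control had the lowest median of the 11, -0.54, with 1 estimate above 0 (Me1, difference 0.06) and 13 below of 14 tested. For 6 of the 14 every 15-HETrE library was below every vehicle library, beside 8.32% of all genes, and 3 had an unadjusted p under 0.05 (Nfe2l2, Mafk and Bach1, the last 2 and Me1 chosen after their values were seen). Nfe2l2, the transcription factor of the oxidative stress response, was at 23.5, 50.4 and 34.7 CPM in the 15-HETrE 1, unnumbered and combined libraries, against 74.9, 81.5 and 73.2 CPM in vehicle 1, 2 and combined. Its groups stood clear of each other, with a difference of -1.12 (SE 0.33, limma adjusted p = 0.402) that was -1.69 within S0916 and -1.05 between the combined libraries. Sqstm1, which encodes the autophagy receptor p62, had 154 ± 38.7 CPM in 15-HETrE and 206 ± 54.1 CPM in vehicle libraries. Of other cell types, fibroblast markers were lower in 15-HETrE for 12 of 12 genes in the estimate and dividing-cell markers for 12 of 12, the dividing-cell list averaging 2.79 to 3.63 in 15-HETrE and 4.28 to 5.58 in vehicle libraries on the log2 scale. Pericyte and smooth muscle markers were higher in 15-HETrE for 1 of 10 genes, and their list averaged 5.11 to 6.30 in 15-HETrE and 6.60 to 7.09 in vehicle libraries on that scale. The part of these lists in the values of NRF2 control was not tested.

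Slc7a11, the cystine importer that feeds glutathione synthesis, was at 21.2, 40.6 and 143.4 CPM in the 15-HETrE 1, unnumbered and combined libraries, against 196.9, 170.8 and 31.8 CPM in vehicle 1, 2 and combined. The combined libraries ran opposite to the rest: the difference was -3.05 within S0916 and 2.14 between the combined libraries, with -1.02 over all (SE 0.76, limma adjusted p = 0.697) and -2.60 without both combined libraries (limma adjusted p = 0.0255). The astrocyte markers averaged 8.63 in 15-HETrE combined and 7.71 in vehicle combined, against 5.02 to 6.14 in the other libraries. Vehicle 1 and 2, with the most Slc7a11, had the highest fibroblast means, 8.71 and 8.47, while vehicle combined was low in both. The part of either list was not tested. The glutathione list as a whole had 12 estimates above and 7 below 0 of 19 tested. In it, Chac1, a glutathione-degrading enzyme, was read 40, 1 and 28 times in the 15-HETrE libraries and 18, 38 and 0 times in the vehicle libraries.

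Defences against lipid radicals other than Gpx4 and Aifm2 had 19 estimates above and 9 below 0 of 28 tested (median 0.25). Scd2, a desaturase that makes monounsaturated fatty acids, was at 3692 ± 1147 CPM in 15-HETrE and 2897 ± 273 CPM in vehicle libraries. Dhodh, a mitochondrial ubiquinone reductase, was at 5.65 ± 1.89 CPM in 15-HETrE and 3.38 ± 2.92 CPM in vehicle libraries. Dhodh was read 107, 114 and 0 times in vehicle 1, 2 and combined, and its groups overlapped. Its difference of 0.96 (limma adjusted p = 0.724) was 0.097 without vehicle combined. In the synthesis and oxidation of polyunsaturated phospholipids, 15 estimates were above and 9 below 0 of 24 tested. Prkcb, a kinase reported in human cells to phosphorylate ACSL4, was at 1079, 741 and 1686 CPM in the 15-HETrE 1, unnumbered and combined libraries, against 514, 347 and 646 CPM in vehicle 1, 2 and combined. Its groups did not overlap, and the difference of 1.18 (SE 0.36, limma adjusted p = 0.422) was 1.35 within S0916 and 1.38 between the combined libraries. Pan-neuronal markers were higher in 15-HETrE by 1.00 in each of those comparisons, and their part was not tested. Lpcat3, which inserts polyunsaturated chains into phospholipids, had 25.7 ± 5.02 CPM in 15-HETrE and 22.7 ± 2.90 CPM in vehicle libraries. Ptgs2, a cyclooxygenase often used as a marker of ferroptosis, had 20.5 ± 9.04 CPM in 15-HETrE and 110 ± 85.02 CPM in vehicle libraries, with vehicle combined, at 12.05 CPM, below all 15-HETrE libraries (difference -1.78, limma adjusted p = 0.552). Without vehicle combined the Ptgs2 difference was -2.98, with a limma adjusted p of 0.0165. It was -2.36 within S0916 and 0.03 between the combined libraries. Vehicle 1 and 2, at 155 and 163 CPM of Ptgs2, were also highest in the fibroblast markers, whose part was not tested.

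Genes of selenoprotein synthesis, on which Gpx4 depends, had 8 estimates above and 8 below 0 of 16 tested, and Selt, an endoplasmic reticulum selenoprotein, had 323 ± 26.2 CPM in 15-HETrE and 347 ± 58.1 CPM in vehicle libraries. Genes of ferritinophagy and lysosomal release had 11 above and 7 below 0 of 18 tested. Ctsb, the lysosomal protease cathepsin B, had 446 ± 157 CPM in 15-HETrE and 643 ± 143 CPM in vehicle libraries (difference -0.57, limma adjusted p = 0.618).

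**Figure D5:**
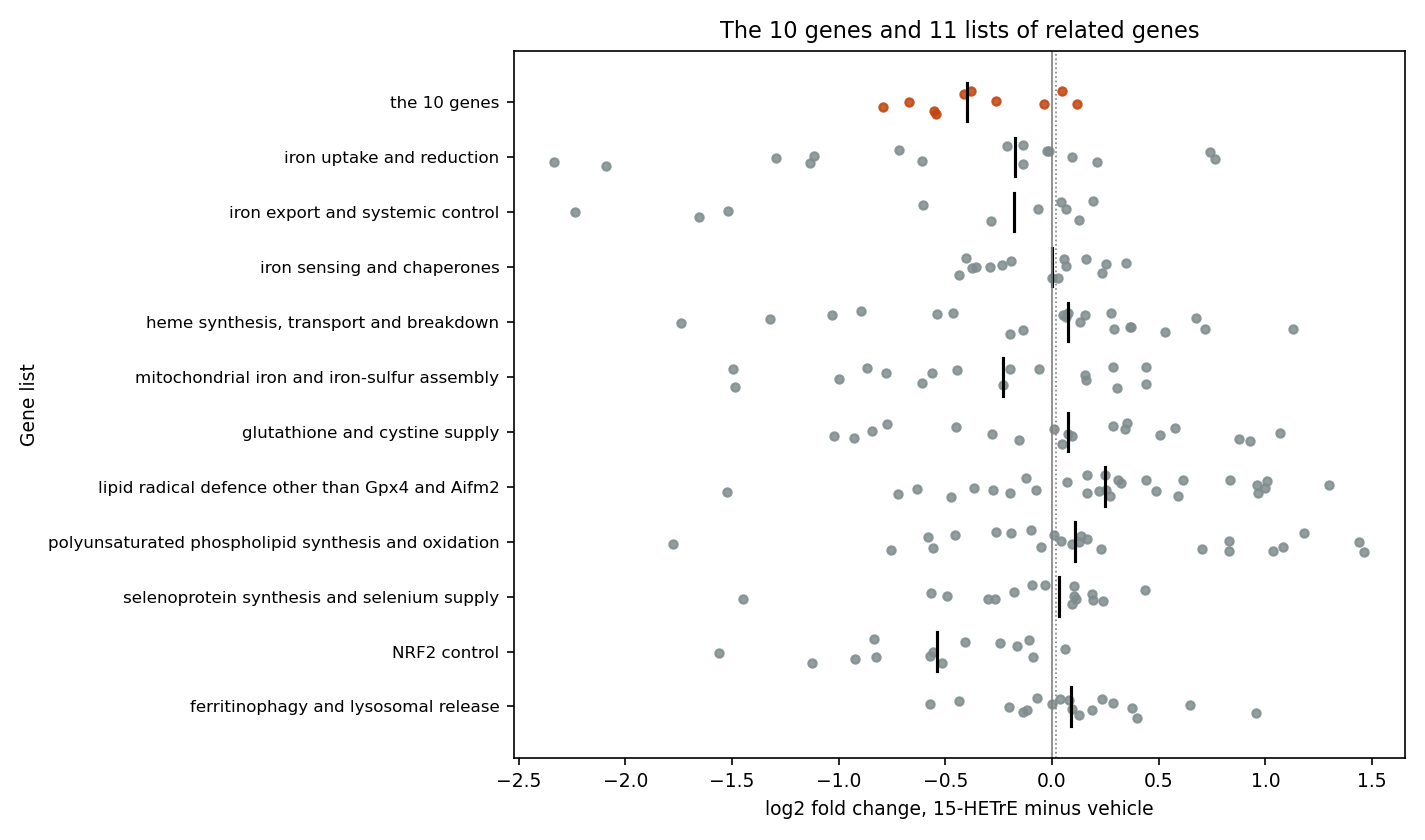
Difference of every tested gene, 15-HETrE minus vehicle in log2(CPM + 1) (x axis), for the 10 genes and for each of the 11 lists of related genes (rows), with 1 point per gene and the median as a bar. The median is lowest in the list of NRF2 control (-0.54) and -0.40 for the 10 genes.

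For each of the 10 genes, the genes with the most similar course over the 6 libraries were sought among 11925 others that averaged 5 CPM or more, by the root mean square distance between centred log2(CPM + 1) values. The closest was Atp6v0a2, a subunit of the vacuolar proton pump, to Ncoa4 at a distance of 0.0250, before Man2c1 and Atp11b. Ftl1 had the ribosomal protein gene Rps2 (0.111), Tulp3 and Rps9 next to it. Acsl4 had Pgk1 (0.0639), Hsp90ab1 and Wbp5, and Gpx4 had Wdr26 (0.0471), Gpbp1l1 and Aff4. Tfrc had Piga (0.0755), Deb1 and Gpc1, and Slc11a2 had Smarcad1 (0.0555), Cers5 and Xrcc1. Fth1 had Crtc3 (0.0975), Add3 and Nedd1, and Slc40a1 had Gkap1 (0.0823), Ctns and Fosb. The nearest genes of Trf (U2af1 at 0.147, Aimp2 and Serf2) and Aifm2 (Commd9 at 0.141, Zfp239 and Tmem120b) were farther away. The values were centred but not scaled, so distances tend to be larger for genes that spread widely. The within-group SD was 0.97 for Trf and 1.00 for Aifm2, against 0.28 for Ncoa4 and 0.15 for Gpx4. The distances of different genes are therefore not directly comparable. With 6 values a gene, such neighbours are a description of these libraries.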

How the data were processed

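Sorted cells were profiled by RNA-seq in 3 libraries per group. Reads were processed against mm10, and the tools named are Trimmomatic, HISAT2, featureCounts and edgeR, per the submitters' processing notes. Their versions, the annotation and the use of strand are not stated in the labels or the file header. The authors deposited 1 table of a signal per gene, CPM scaled by edgeR size factors. Dividing each column by its smallest value above 0 gave whole numbers for 100% of the values (tolerance 1e-04 reads), so reads were recovered; their sums are the depths. Column names give the group of each library, and 3 of the 6 carry no number that matches a sample title. The labels do not explain combined or the name prefixes. Other per-sample columns numbered 0.

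Genes that averaged 1 CPM or more were fitted with limma 3.58.1 in R 4.3.3 on log2(CPM + 1) with a variance trend, in a two-sided test adjusted by Benjamini-Hochberg across those genes, at a threshold of 0.05. edgeR 4.0.16 (quasi-likelihood) and DESeq2 1.42.0 were run on the recovered reads. Other alternatives were pseudocounts, filters, scalings, library weights, a robust trend, a name-prefix term and leaving out libraries. Positions, lengths and copies (BLAST 2.17.0, at least 90% identity) come from GENCODE M21. Scripts were tested on simulated data.

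The 10 genes and all lists were chosen with earlier results of these data known. The text gives the 10 genes, 16 further genes chosen for their role (Gch1, under 1 CPM, was not tested), the most abundant gene of each list (1 is not reported here), and the closest genes in pattern. Of the genes on the pathway and marker lists together, 13 matched through older symbols. Intervals and depths cover counting error and spread between libraries only.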

Additional observations from a re-analysis of the deposited data

How the results depend on the processing

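Of the 10 genes, Ftl1 (-1.31 to -0.59), Slc11a2 (-0.67 to -0.23), Acsl4 (-0.74 to -0.36) and Slc40a1 (-0.63 to -0.26) kept a difference below 0 under all 20 alternatives. Part of these could not change a difference. The filters and the robust trend fit the same values, and size factors computed anew returned the deposited scaling. The number of the 10 that passed was 0 except with library weights, where it was 1 (Ftl1). Vehicle combined then had the lowest weight, 0.206, and 15-HETrE 1 held 3.16 against 0.508 and 0.441 for 15-HETrE unnumbered and combined. Library weights called 2425 of 14523 genes in all and 32 of 197 pathway genes, and DESeq2 called 165 and 1. The fit without both combined libraries called 204 of 14559 genes in all and 3 pathway genes. The name-prefix term called 8 in all. Leaving out 1 library at a time called 0 to 110 genes, 0 of the 10 and 0 to 2 pathway genes, the highest without vehicle combined. Cp and Ptgs2 passed without vehicle combined (limma adjusted p = 0.0190 and 0.0165), and Cp, Slc7a11 and Ptgs2 without both combined libraries.

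Signs changed for the differences below, among them Trf (-0.67 over all libraries) and Chac1 (0.51); the cause was not tested. With library weights the difference was 0.10 for Tfrc, -0.48 for Fth1, 0.066 for Aifm2, -0.086 for Ireb2, -0.024 for Lpcat3 and -0.095 for Epas1. Without both combined libraries it was 0.081 for Tfrc, -0.088 for Fth1, 0.58 for Aifm2, -0.17 for Ireb2, -0.074 for Lpcat3 and -0.37 for Chac1. With the name-prefix term it was -0.28 for Fth1, -0.068 for Ncoa4, 0.040 for Aco1 and 0.065 for Lrp1. Only 15-HETrE unnumbered carries the prefix S0929, so the term fits that library by itself. The difference then rests on the other libraries. Quantile normalization gave -0.17 for Fth1 and 0.0052 for Aco1, and Aifm2 was 0.15 in edgeR and 0.14 in DESeq2. Leaving out 1 library at a time gave -1.31 to 0.023 for Trf, -0.19 to 0.44 for Fth1, -0.016 to 0.30 for Ncoa4, -0.16 to 0.025 for Gpx4, -0.87 to 0.51 for Aifm2, -0.15 to 0.23 for Ireb2, -0.12 to 0.080 for Aco1, -0.40 to 0.13 for Lrp1, -0.33 to 0.50 for Epas1, -0.072 to 0.39 for App and -0.18 to 0.039 for Selt. Trf against the oligodendrocyte markers stayed below 0 under all 14 alternatives, -1.16 to -0.30. Rescaling of whole libraries nearly cancels in this difference within a library, so alternatives of that kind could hardly change it. No paired analysis was possible because only 1 replicate number is carried by libraries of both groups. Depth limited Aifm2 and Slc40a1 most, with 8 and 34 reads in 15-HETrE combined.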
